A study of Mus musculus with 8 samples.

Results

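Ppid, which encodes cyclophilin 40, and 9 genes of the chaperones it works with or beside (Hspa1a, Hspa1b, Hsp90aa1, Hsp90ab1, Hsph1, Dnajb1, Hspa8, Hspd1 and Hspe1) are described here in myeloid cells that lack PARP1 or PARP2. These 10 genes were chosen by symbol from the 24062 genes of the count table, because Ppid had fallen in the PARP1 deletion. All 10 had counts in every library and passed the filter on low counts, as did 13197 genes in all. Because the comparison of PARP1CKO with PARP1 WT was used to select them, their values in that comparison are given as a description without p-values, and the counts of calls among them there are not read as a result.

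Molecular chaperones are proteins that bind unfolded or partly folded client proteins and release them in cycles driven by ATP. Cyclophilin 40 is a peptidyl-prolyl isomerase with a tetratricopeptide repeat domain that docks on the C terminus of HSP90 and takes part in HSP90 complexes with steroid receptors and other clients. Hsp90aa1 and Hsp90ab1 encode the stress-inducible and the constitutive cytosolic HSP90. Hspa8 encodes the constitutive cytosolic HSP70, and Hspa1a and Hspa1b are a pair of neighbouring genes that encode the stress-inducible HSP70. Dnajb1 encodes a J-domain protein that stimulates the ATPase of HSP70, and Hsph1 encodes a large HSP110-type nucleotide exchange factor that lets HSP70 release its client. Hspd1 and Hspe1 encode the chaperonin HSP60 and its lid HSP10, which work in the mitochondrial matrix, so 8 of the genes are cytosolic chaperones or co-chaperones and these 2 are not. In heat shock and other proteotoxic stress, the transcription factor HSF1 binds arrays of the unit nGAAn in alternating orientation upstream of many of these genes.

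RNA sequencing was carried out on immature myeloid cells (IMCs), which are bone marrow precursors of macrophages, granulocytes and osteoclasts. The cells came from the marrow of C57BL/6 mice 2 months of age and had grown for 3 days with M-CSF at 40 ng/mL in α-MEM with 10% fetal bovine serum. PARP1 WT cells were PARP1 flox/flox without Cre and PARP2 WT cells were PARP2 flox/flox without Cre. PARP1CKO and PARP2CKO cells carried the same floxed alleles together with lysozyme-Cre, whose promoter drives the recombinase in the myeloid lineage. Each of the 4 groups had 2 libraries, so each mean ± SD below has n = 2. The labels call them biological duplicates without naming the animals, so the p-values measure the spread between these libraries.

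The libraries held 37852450 to 61845125 counts assigned to genes, and no pair within a group agreed within sampling noise. Parp1 was at 202 and 211 CPM (counts per 1000000 counts of the scaled library) in PARP1 WT and at 63.2 and 59.1 CPM in PARP1CKO, a log2 change of −1.75 (SE 0.178, adjusted p = 0.0134 by edgeR's quasi-likelihood test). With 1 library left out the change was −1.80 to −1.71, but the call was lost without PARP1 WT replicate 1 or 2 or PARP1CKO replicate 2 (adjusted p up to 0.0753). Parp2 was at 48.2 and 48.3 CPM in PARP2 WT and at 25.7 and 25.6 CPM in PARP2CKO (log2 −0.91, SE 0.0453, adjusted p = 0.000139), so transcript of each targeted gene remained. The libraries were rich in Csf1r (1134 to 1273 CPM) and Itgam (881 to 1035 CPM), and 9 of the 10 myeloid markers listed were found in the table and passed the filter. Their summed level was 9921 and 10830 CPM in the PARP1 WT libraries, 8003 and 8625 CPM after PARP1 deletion, 14283 and 15392 CPM in the PARP2 WT libraries and 11637 and 10377 CPM after PARP2 deletion, much of it from Lyz2, the gene whose promoter drives the Cre. Without Lyz2 the other 8 summed to 4209 and 4443 CPM in the PARP1 WT libraries. They summed to 4508 and 4291 CPM after PARP1 deletion, with overlapping groups. In the PARP2 line they summed to 4558 and 4588 CPM without Cre and to 4895 and 4630 CPM with the deletion. These PARP2 line groups did not overlap, and the deletion libraries were the higher ones. B cell markers summed to 27.5 to 39.8 CPM in the PARP1 line and 7.78 to 10.6 CPM in the PARP2 line. Neutrophil markers, which this lineage also expresses as it matures, summed to 2409 to 3147 CPM in every library. The groups of the PARP1 line overlapped. In the PARP2 line the sum was 3147 and 2923 CPM without Cre and 2878 and 2553 CPM with the deletion, lower without overlap. Markers of T and NK cells, red cells, basophils and stroma each summed to at most 15.7 CPM in any library.

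Positions are given on GRCm38 with GENCODE M21 gene models. Ppid is at chr3:79591342-79603650 on the plus strand, Hsp90aa1 at chr12:110690605-110702728 and Hsp90ab1 at chr17:45567775-45573271, both on the minus strand. Hspa8 is at chr9:40800984-40810087 and Dnajb1 at chr8:83608193-83612653 on the plus strand, and Hsph1 at chr5:149614287-149636376 on the minus strand. Hspd1 (chr1:55077835-55088243, minus strand) and Hspe1 (chr1:55088132-55091307, plus strand) run apart from a shared start region in which their annotated ends overlap by 112 bases. Hspa1b (chr17:34956436-34959238) and Hspa1a (chr17:34969190-34972156) lie on the minus strand with 9951 bases between them, each as a single exon.

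Start-site sequence is shown for the pairs in which it bears on how the counts can be read or on the HSF1 unit. RefSeq windows on GRCm38.p6, from 250 bases before to 50 bases after a start site, were at hand for 6 of the 10 genes (Hspa1a, Hspa1b, Hsph1, Dnajb1, Hspd1 and Hspe1). The windows of Hspa1a and Hspa1b were identical at 296 of 300 bases (98.7%), and the differences, with the Hspa1a base named before the position counted from the 5′ end of the window, were C44T, T47C, T249G and C276T. The last 200 bases before each start site are printed here because this pair is so alike, with the GAA and TTC of a GAANNTTC match in capitals, at position −104.
Hspa1a (chr17:34972157-34972356, minus strand): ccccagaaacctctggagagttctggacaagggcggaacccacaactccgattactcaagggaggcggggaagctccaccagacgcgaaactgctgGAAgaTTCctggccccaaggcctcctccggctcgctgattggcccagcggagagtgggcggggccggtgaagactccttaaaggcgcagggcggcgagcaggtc
Hspa1b (chr17:34959239-34959438, minus strand): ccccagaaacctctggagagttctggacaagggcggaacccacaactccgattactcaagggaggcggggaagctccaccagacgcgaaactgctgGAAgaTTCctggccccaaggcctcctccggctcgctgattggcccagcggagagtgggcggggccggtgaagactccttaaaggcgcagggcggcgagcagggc

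GAANNTTC and TTCNNGAA read the same on both strands and can overlap each other. Either was present in 6 of the 9 windows of these genes and in 15.1% of all 32851 RefSeq windows of this length. A run of 3 alternating units (GAANNTTCNNGAA or TTCNNGAANNTTC) was present in 4 of the 9 windows, against 0.603% of all windows. Those 4 were both Hsph1 windows, the Hspe1 window and 1 Hspd1 window. The Hsph1 windows overlap each other and hold the same run, at chr5:149636288-149636300. The Hspe1 and Hspd1 windows share the same DNA read from opposite strands, so the 4 windows are not 4 separate matches. The stretch before the RefSeq start site of Hspe1 and the one just after the upstream start site of Hsph1 are printed to show the units, which are in capitals.
Hspe1 (chr1:55088053-55088082, plus strand): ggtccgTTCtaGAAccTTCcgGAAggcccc
Hsph1 (chr5:149636287-149636316, minus strand): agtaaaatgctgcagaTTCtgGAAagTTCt
No match was found in either Dnajb1 window or in the other Hspd1 window. A match of letters is a description and was not tested for binding.

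Levels are compared between the genes as CPM per kb of exon. Hspa8 was the most abundant, with a mean of 744 CPM per kb over the 8 libraries and a range of 689 to 788. Hsp90ab1 came next at 559 CPM per kb (516 to 580), and was followed by Hsp90aa1 at 199 (189 to 222), Hspd1 at 159 (147 to 167) and Hspe1 at 67.3 (63.5 to 71.2). None of these neighbours in the order overlapped in range. Hsph1 at 11.3 CPM per kb (10.3 to 11.8), Dnajb1 at 10.3 (9.82 to 10.9) and Ppid at 10.0 (8.59 to 10.8) overlapped one another in range. Their order within each library was not compared. Hspa1a at 0.204 CPM per kb (0.126 to 0.279) and Hspa1b at 0.145 (0.0645 to 0.221) also overlapped, and stood far under the rest. The constitutive cytosolic HSP90 and HSP70 were thus the most abundant of the family and the inducible HSP70 pair was the least abundant, as the plot of levels per kb shows.

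**Figure D1:**
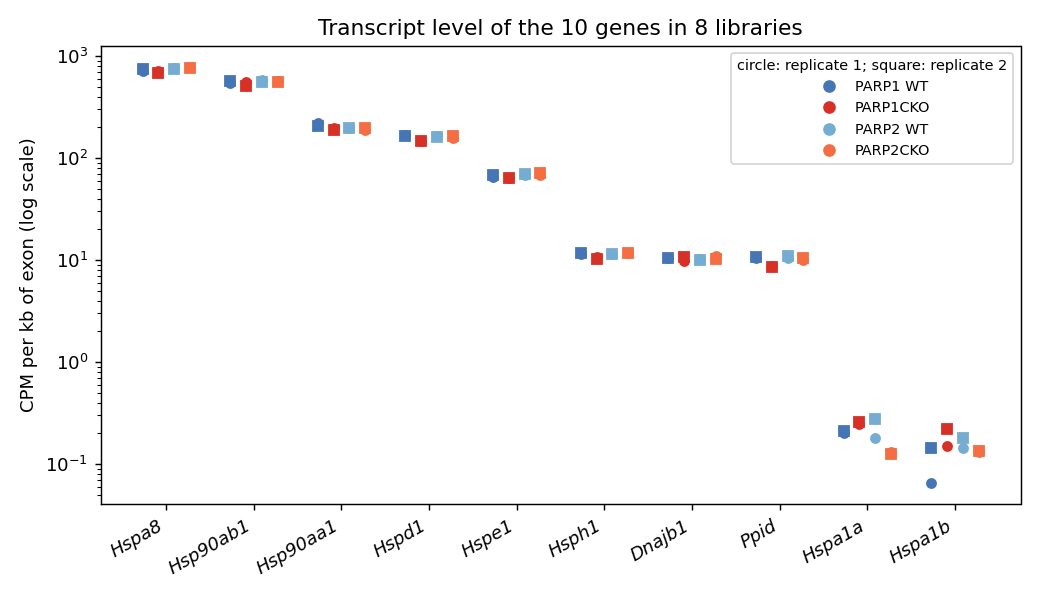
Level of each gene (CPM per kb of exon, log scale) in each of the 8 libraries, coloured by group, with circles for replicate 1 and squares for replicate 2. Hspa8 lies at 689 to 788 CPM per kb and Hspa1b at 0.0645 to 0.221.

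Between libraries, the 8 abundant genes varied little. The highest library was at 1.11 times the lowest for Dnajb1 and at 1.26 times for Ppid, with the other 6 in between. The ratio was 2.22 for Hspa1a and 3.42 for Hspa1b. The inducible pair held only 18 to 43 counts (Hspa1a) and 7 to 28 counts (Hspa1b) per library, where counting error alone is 15.2% to 23.6% and 18.9% to 37.8% of the value. For Hspa8, with 120015 to 202060 counts, it is at most 0.289%. The within-group SD of log2 CPM was 0.0234 for Hsph1, 0.0367 for Ppid and 0.0588 for Dnajb1, beside a median of 0.0538 over the 8673 genes with a mean of at least 10 CPM. PARP1CKO replicate 2 was the lowest of the 8 libraries for Ppid, Hsp90ab1, Hsph1, Hspa8, Hspd1 and Hspe1.

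Some of these genes share sequence with other transcripts, and how reads that fit several places were counted is not given in the sources used here. Of all 75-base stretches of their transcripts, the length of a read, 61.7% in Hspa1a and 55.8% in Hspa1b also occurred in another gene, for most of them the other gene of the pair. The share was 42.8% for Hsp90aa1, 33.05% for Hspa8, 31.0% for Hspd1 and 14.6% for Hspe1, most often with unnamed gene models or a pseudogene. It was 5.955% for Ppid, 0.537% for Hsp90ab1 and 0 for Hsph1 and Dnajb1. Levels of Hspa1a and Hspa1b taken apart, and the levels of Hsp90aa1, Hspa8 and Hspd1, are uncertain for this reason. The library kit marks strand but the counting setting is not given, so reads from the overlap of Hspd1 and Hspe1 may be shared between them.

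The comparison of PARP1CKO with PARP1 WT asks what changed when PARP1, an enzyme that attaches ADP-ribose chains to chromatin proteins, was deleted in myeloid cells. Ppid, the cyclophilin on which the genes were chosen, was at 48.5 and 49.8 CPM in PARP1 WT and at 40.1 and 39.8 CPM in PARP1CKO. It stood at 48.6 and 50.3 CPM in PARP2 WT and at 46.2 and 48.9 CPM in PARP2CKO. Both PARP1CKO libraries lay under all 6 of the others, which overlapped among themselves. The PARP1 WT mean was 49.2 ± 0.927 CPM and the PARP1CKO mean 40.0 ± 0.217 CPM, a fitted log2 difference of −0.30 (SE 0.0457), or 18.7% less. In these bulk cultures, fewer cells of a type that carry a transcript and less of that transcript per cell cannot be told apart.

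Hsp90aa1, the inducible HSP90, was at 873 and 808 CPM in PARP1 WT and at 771 and 748 CPM in PARP1CKO (log2 −0.15, SE 0.0502). The PARP1 WT libraries were the highest of the 8 for this gene, and the PARP2 WT libraries stood at 778 and 775 CPM, close to PARP1CKO. The difference was −0.093 without PARP1 WT replicate 1 and −0.21 without PARP1 WT replicate 2. Hsp90ab1, the constitutive HSP90, was at 1646 and 1717 CPM in PARP1 WT and at 1686 and 1546 CPM in PARP1CKO, with overlapping groups (log2 −0.06, SE 0.0543).

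Among the HSP70 genes, Hspa8 was at 3102 and 3237 CPM in PARP1 WT and at 3096 and 2964 CPM in PARP1CKO (log2 −0.06, SE 0.0489). The groups were separated there by a narrow gap. Hspa1a was at 0.594 and 0.625 CPM in PARP1 WT (23 and 31 counts) and at 0.734 and 0.774 CPM in PARP1CKO (37 and 35 counts), with a log2 difference of 0.30 (SE 0.274). Hspa1b was at 0.181 and 0.403 CPM in PARP1 WT (7 and 20 counts) and at 0.416 and 0.619 CPM in PARP1CKO (21 and 28 counts), with a log2 difference of 0.76 (SE 0.398). Without PARP1 WT replicate 2, the Hspa1b difference was 1.49, and without PARP1 WT replicate 1 it was 0.35. Summed over the pair, which removes how reads were split between them but not reads that were dropped or shared with other genes, the counts were 30 and 51 in PARP1 WT and 58 and 63 in PARP1CKO, or 0.775 and 1.03 against 1.15 and 1.39 CPM. The inducible HSP70 pair was thus higher in both PARP1CKO libraries than in both PARP1 WT libraries, at a summed level near 1 CPM.

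Of the HSP70 co-chaperones, Hsph1 was at 82.5 and 84.4 CPM in PARP1 WT and at 77.5 and 74.7 CPM in PARP1CKO (log2 −0.13, SE 0.0384). The PARP1CKO libraries were the lowest of all 8 for this exchange factor. Dnajb1, the J-domain protein, was at 34.0 and 33.4 CPM in PARP1 WT and at 31.5 and 34.1 CPM in PARP1CKO (log2 −0.04, SE 0.0590), with overlapping groups.

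The mitochondrial chaperonin gene Hspd1 was at 442 and 432 CPM in PARP1 WT and at 391 and 389 CPM in PARP1CKO (log2 −0.16, SE 0.0435). Its PARP2 line libraries lay at 416 to 440 CPM, all above PARP1CKO. Hspe1, its lid, was at 95.4 and 100.4 CPM in PARP1 WT and at 93.9 and 93.5 CPM in PARP1CKO (log2 −0.06, SE 0.0419), and its PARP2 line libraries lay at 101.0 to 104.9 CPM.

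In sign, 8 of the 10 genes were lower and 2 higher in PARP1CKO. The groups did not overlap for 6 lower genes (Ppid, Hsp90aa1, Hsph1, Hspa8, Hspd1 and Hspe1) and for the 2 higher ones, where 20.2% of all 13197 genes tested were lower and 21.0% higher without overlap. The median log2 difference was −0.0641 for the 10 genes and 0.00586 for all genes tested. At an adjusted p under 0.05 in edgeR's quasi-likelihood test, 0 of the 10 were called beside 0.106% of all genes, and at an unadjusted p under 0.05 it was 4 beside 11.3% of all genes. DESeq2 called 86 genes in all, with 1 of the 10 (Ppid) among them. Nothing is read from these counts, since this comparison was used in the choice. The genes of the early response to stimulation were lower in sum as well. All 14 listed passed the filter, and their summed level was 977 and 941 CPM in PARP1 WT and 740 and 626 CPM in PARP1CKO. In the PARP2 line the sum was 914 and 1073 CPM without Cre and 887 and 893 CPM with the deletion, lower as well and by less. Without overlap between the groups, 7 of the 14 were lower in PARP1CKO (Fos, Fosb, Egr1, Ier2, Dusp1, Zfp36 and Nr4a1), none was higher, and the other 7, Jun and Junb among them, overlapped, beside 20.2% of all genes lower without overlap. In PARP2CKO 8 were lower and 3 higher (Fosl2, Junb and Atf3), beside 18.8% lower and 18.4% higher of all genes. Fos was at 173 and 147 CPM in PARP1 WT and at 69.7 and 47.1 CPM in PARP1CKO. Egr1 was at 72.5 and 51.7 CPM in PARP1 WT and at 14.5 and 7.17 CPM in PARP1CKO, and went from 41.0 and 79.1 to 17.6 and 22.6 CPM in the PARP2 line. The part of these differences in the chaperone values was not tested. With each library left out in turn, the log2 difference of Ppid was −0.32 to −0.28.

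**Figure D2:**
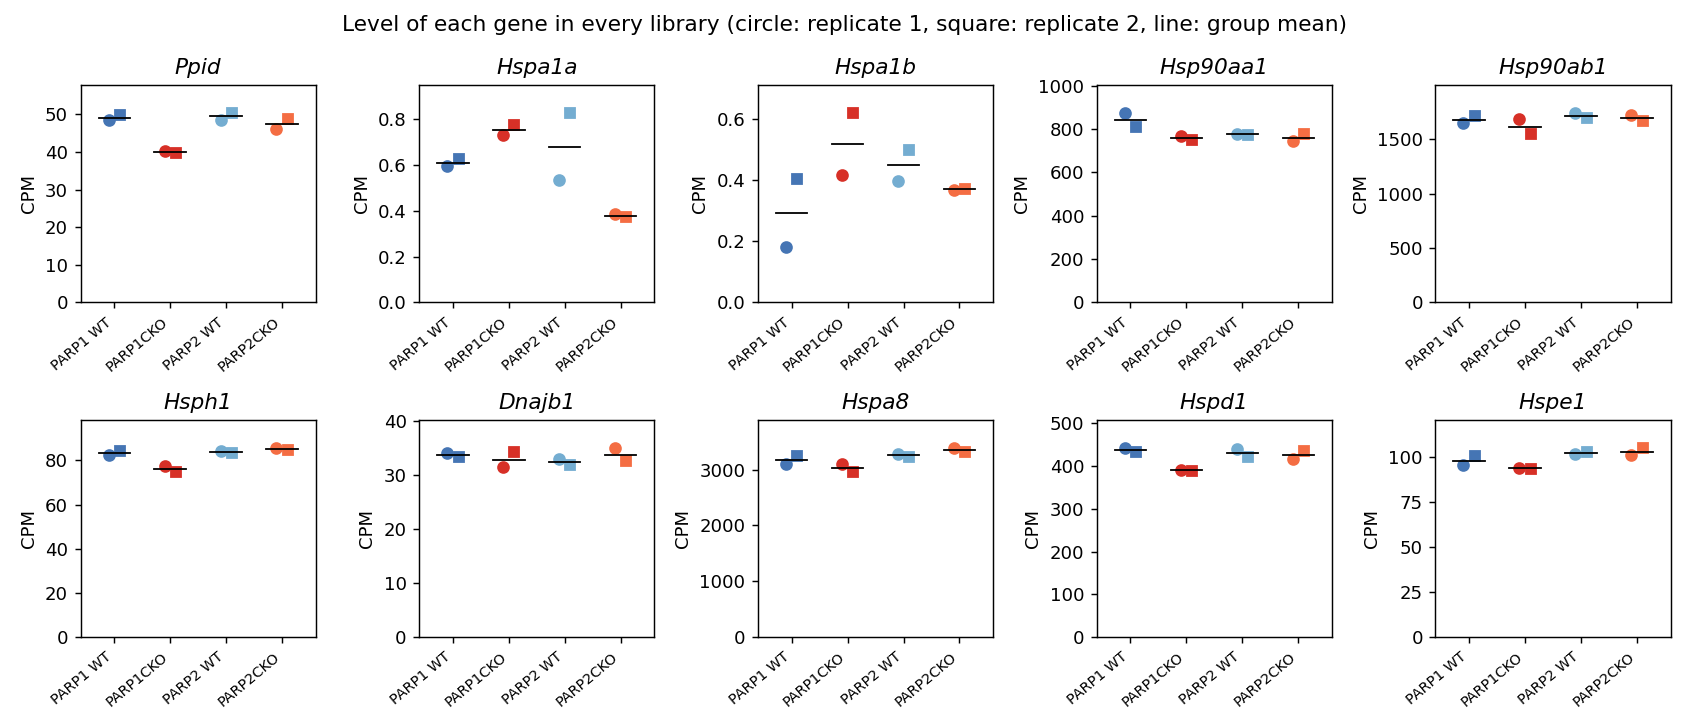
CPM of each gene in every library by group, on axes that start at 0, with circles for replicate 1, squares for replicate 2 and a line at the group mean. Ppid lies at 39.8 to 40.1 CPM in PARP1CKO and at 46.2 CPM or more elsewhere, whereas the groups of Dnajb1 overlap except for the Cre-free lines.

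Ratios within a library do not depend on how libraries were scaled to each other. Per kb, Ppid was 10.3% and 10.5% of the geometric mean of the other 7 abundant genes in PARP1 WT, and 8.96% and 9.05% in PARP1CKO. In the PARP2 line it was 10.2% and 10.7% without Cre, and 9.73% and 10.3% with the deletion. The PARP1 line shares rest on the values used in the choice and are no further support. The ratio of Hsp90aa1 to Hsp90ab1 per kb was 0.405 and 0.359 in PARP1 WT and 0.349 and 0.369 in PARP1CKO, and 0.330 to 0.355 in the PARP2 line, so the groups of the PARP1 line overlapped. The ratio of Hspd1 to Hspe1 was 2.58 and 2.40 in PARP1 WT, 2.32 in both PARP1CKO libraries, and 2.29 to 2.42 in the PARP2 line.

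The comparison of PARP2CKO with PARP2 WT was not the one used in the choice, although earlier results of these data were known. It asks the same for PARP2, the closest relative of PARP1. None of the 10 genes passed the test there, where 0.0530% of all genes did (adjusted p from 0.888 to 0.993 by edgeR's quasi-likelihood test). Only Hspa1a had an unadjusted p under 0.05, which 4.83% of all genes had, and DESeq2 called none. The median log2 difference of the 10 genes was −0.0166, beside −0.0014 over all genes tested. Groups did not overlap for 2 lower genes (Hspa1a and Hspa1b) and 2 higher genes (Hsph1 and Hspa8), against 18.8% and 18.4% of all genes.

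Ppid was at 49.5 ± 1.20 CPM in PARP2 WT and at 47.6 ± 1.91 CPM in PARP2CKO, with overlapping groups (log2 −0.06, 95% interval −0.16 to 0.04, adjusted p = 0.956). This difference was within the spread between libraries, at −0.016 without PARP2CKO replicate 1 and −0.097 without PARP2CKO replicate 2. No test of whether the deletions differ in their effect is given for Ppid, since it was chosen on 1 of them.

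Hspa1a was at 0.536 and 0.827 CPM in PARP2 WT (31 and 43 counts) and at 0.386 and 0.373 CPM in PARP2CKO (23 and 18 counts). The fitted log2 difference was −0.83 (95% interval −1.48 to −0.18, unadjusted p = 0.0174, adjusted p = 0.888). It did not pass the test, and the PARP2 WT libraries themselves spread widely for this gene, with a difference of −0.49 without PARP2 WT replicate 2 and −1.12 without PARP2 WT replicate 1. Hspa1b was at 0.398 and 0.500 CPM in PARP2 WT and at 0.369 and 0.373 CPM in PARP2CKO (log2 −0.27, adjusted p = 0.977). Summed over the pair, the PARP2 WT libraries held 54 and 69 counts and the PARP2CKO libraries 45 and 36, or 0.934 and 1.33 against 0.754 and 0.746 CPM. At so few counts, the interval for Hspa1b (−1.11 to 0.57) leaves room for a large difference in either direction.

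Neither HSP90 gene passed the test in the PARP2 line. Hsp90aa1 was at 778 and 775 CPM in PARP2 WT and at 744 and 777 CPM in PARP2CKO (log2 −0.03, adjusted p = 0.977). Hsp90ab1 was at 1739 and 1692 CPM in PARP2 WT and at 1720 and 1670 CPM in PARP2CKO (log2 −0.02, adjusted p = 0.990). Both pairs of groups overlapped.

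Hspa8 was at 3283 and 3232 CPM in PARP2 WT and at 3387 and 3314 CPM in PARP2CKO (log2 0.04, adjusted p = 0.974). Hsph1 was at 84.2 and 83.5 CPM in PARP2 WT and at 85.6 and 84.7 CPM in PARP2CKO (log2 0.02, adjusted p = 0.977). These groups were separated without passing the test. Dnajb1 was at 32.9 and 31.9 CPM in PARP2 WT and at 35.0 and 32.5 CPM in PARP2CKO (log2 0.06, adjusted p = 0.968). Hspd1 was at 440 and 422 against 416 and 436 CPM (log2 −0.02, adjusted p = 0.986), and Hspe1 at 101.6 and 103.0 against 101.0 and 104.9 CPM (log2 0.01, adjusted p = 0.993). For the 8 abundant genes, the 95% intervals of the difference all lay between −10.4% and 14.0%.

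**Figure D3:**
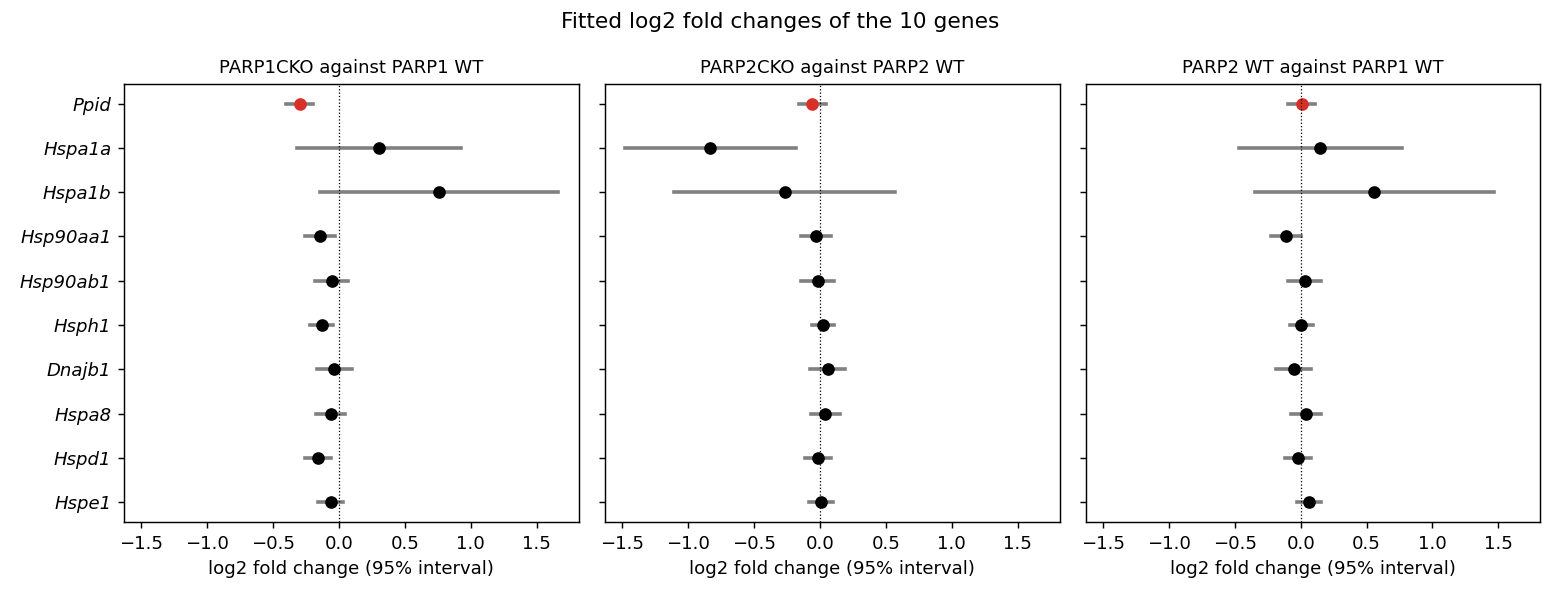
Fitted log2 fold change (x axis) of each gene with its 95% interval (grey line) for the PARP1 deletion (left), the PARP2 deletion (middle) and the Cre-free lines (right), with Ppid in red. The left panel is a description of the values that were used in the choice. The intervals of the 8 abundant genes in the middle panel include 0, and those of Hspa1a and Hspa1b are the widest.

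The Cre-free groups give the background between the floxed lines, in which line, litter and handling cannot be told apart. This comparison shares the PARP1 WT libraries with the one used in the choice. None of the 9 genes tested here passed edgeR's quasi-likelihood test, which 3.16% of all genes did. DESeq2 called none of the 9 either. Only Hsp90aa1 had an unadjusted p under 0.05 in edgeR's test, against 18.9% of all genes. Hsp90aa1 was at 841 ± 45.9 CPM in PARP1 WT and at 777 ± 1.86 CPM in PARP2 WT (log2 −0.11, SE 0.0501, unadjusted p = 0.0483, adjusted p = 0.260 by edgeR's quasi-likelihood test). The difference of this gene between the Cre-free lines (−0.11) thus stood beside −0.15 for PARP1CKO, each time against the same PARP1 WT libraries, and was −0.058 without PARP1 WT replicate 1. Ppid was at 49.2 ± 0.927 CPM in PARP1 WT and at 49.5 ± 1.20 CPM in PARP2 WT, and is given without a test. Groups did not overlap for Hsp90aa1 and Dnajb1, which were lower, and for Hspe1, which was higher, while 25.2% of all genes were lower and 26.7% higher without overlap. Dnajb1 had a log2 difference of −0.05 (adjusted p = 0.668) and Hspe1 one of 0.06 (adjusted p = 0.462). The median over the 10 genes was 0.0184, and 0.00131 over all genes.

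Other genes of the folding machinery were followed in 7 lists that hold none of the 10 genes. Of 110 genes listed, 105 were tested. In PARP1CKO against PARP1 WT, none was called, beside 0.106% of all genes, and 73 were lower and 32 higher in sign, where 6322 of all 13197 genes were lower, with 19 lower (18.1%) and 2 higher (1.9%) at an unadjusted p under 0.05, beside 5.15% lower and 6.11% higher of all genes. Their median log2 difference was −0.0427, and their smallest adjusted p was 0.287. In PARP2CKO against PARP2 WT, none was called, beside 0.0530% of all genes, and 55 were lower and 50 higher. Of these, 1 (0.952%) had an unadjusted p under 0.05, beside 4.83% of all genes, and the median was −0.0041 with a smallest adjusted p of 0.954. The difference between the deletions was not tested for these lists.

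The chaperonin TRiC, a double-ring folding machine for actin and tubulin, and its partner prefoldin had the lowest median of the 7 lists in PARP1CKO, though not in the other comparisons. In PARP1CKO, 12 of the 13 genes measured were lower and the median was −0.0938. Of the 13, 9 were lower without overlap, beside 20.2% of all genes, and 7 were lower with an unadjusted p under 0.05, beside 5.15% of all genes. Cct2, a TRiC subunit, was at 299 and 303 CPM in PARP1 WT and at 277 and 274 CPM in PARP1CKO (log2 −0.13, SE 0.0377, adjusted p = 0.287). Vbp1, a prefoldin subunit, was at 39.4 and 32.7 against 30.9 and 34.4 CPM, with overlapping groups (log2 −0.14, adjusted p = 0.569), and its difference was −0.0073 without PARP1 WT replicate 1 and −0.28 without PARP1 WT replicate 2. In PARP2CKO, 10 of the 13 genes were higher with a median of 0.0241, and Pfdn2 and Pfdn5, both of prefoldin, had log2 differences of 0.06 and −0.06.

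Of the 16 HSP90 co-chaperones, the class to which Ppid itself belongs, 11 were lower in PARP1CKO and 3 (18.8%) were so at an unadjusted p under 0.05, beside 5.15% of all genes (median −0.0542). Chordc1, a zinc-binding HSP90 partner, was at 105.6 and 105.0 CPM in PARP1 WT and at 91.7 and 95.7 CPM in PARP1CKO (log2 −0.17, SE 0.0469, adjusted p = 0.287). Sugt1, an HSP90 adaptor, had a log2 difference of −0.15 (adjusted p = 0.411), which was −0.057 without PARP1 WT replicate 1 and −0.25 without PARP1 WT replicate 2. In PARP2CKO, Ahsa1, which stimulates the ATPase of HSP90, was at 320.2 and 319.7 CPM in PARP2 WT and at 338 and 360.4 CPM in PARP2CKO (log2 0.13, adjusted p = 0.954), and Cdc37l1 had a log2 difference of −0.09.

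Of the 15 other cyclophilins and cyclophilin-domain proteins, 9 were lower in PARP1CKO and 3 were so at an unadjusted p under 0.05, beside 5.15% of all genes (median −0.0411). Among those with a mean of at least 10 CPM, the largest differences were in Ppil4 (57.1 and 55.0 against 48.4 and 53.0 CPM, log2 −0.15, adjusted p = 0.382) and Cwc27 (log2 −0.14, adjusted p = 0.385), both of the spliceosome. In PARP2CKO, 11 of the 15 were lower, with none at an unadjusted p under 0.05, beside 2.46% lower and 2.36% higher of all genes, and Nktr and Ppwd1 each had a log2 difference of −0.09.

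The HSP70 and J-domain co-chaperones went in both directions in PARP1CKO, with 13 of 24 lower and a median of −0.0051. At an unadjusted p under 0.05, 3 (12.5%) were lower and 2 (8.33%) higher, beside 5.15% lower and 6.11% higher of all genes. Hspbp1, an exchange factor for HSP70, was at 26.7 and 27.9 CPM in PARP1 WT and at 31.4 and 30.3 CPM in PARP1CKO (log2 0.17, adjusted p = 0.287). Hspa4l, a relative of Hsph1, had a log2 difference of −0.17 in PARP1CKO (adjusted p = 0.338) and −0.12 in PARP2CKO (adjusted p = 0.954), and Dnajb2 one of −0.09 in PARP2CKO.

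Neither of the factors that drive the heat shock genes passed the test. Hsf1 was at 37.4 and 40.8 CPM in PARP1 WT and at 44.4 and 39.8 CPM in PARP1CKO (log2 0.11, adjusted p = 0.580), and had a log2 difference of −0.04 in PARP2CKO. Hsf2 was at 20.8 and 20.7 against 20.3 and 19.7 CPM (log2 −0.05, adjusted p = 0.744), and had one of −0.0046 in PARP2CKO. Of the 11 listed heat shock factors and small heat shock proteins, 7 passed the filter. Among these, 1 (14.3%) was lower in PARP1CKO at an unadjusted p under 0.05, beside 5.15% of all genes.

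In the organelles, 10 of 14 mitochondrial chaperones and proteases and 14 of 16 endoplasmic reticulum chaperones were lower in PARP1CKO, with medians of −0.0275 and −0.0413. At an unadjusted p under 0.05, 0 of the mitochondrial and 2 (12.5%) of the endoplasmic reticulum genes were lower and 0 higher, beside 5.15% lower and 6.11% higher of all genes. Hspa9, the mitochondrial HSP70, had a log2 difference of −0.09 (adjusted p = 0.496) and its J-domain partner Dnaja3 one of −0.08 (adjusted p = 0.483). In the endoplasmic reticulum, the disulfide isomerase Pdia3 was at 935 and 927 against 850.3 and 842 CPM (log2 −0.14, adjusted p = 0.288), and Hsp90b1, its HSP90, at 1696 and 1668 against 1512 and 1552 CPM (log2 −0.13, adjusted p = 0.364). In PARP2CKO, the proteases Lonp1 and Afg3l2 had log2 differences of −0.12 and 0.11, and Sil1 and Dnajb9 of the endoplasmic reticulum −0.07 and −0.06. Between the Cre-free lines, 2 of the 105 listed genes tested (1.9%) were called, beside 3.16% of all genes, both of the endoplasmic reticulum and named after their values were seen. Sdf2l1 was at 61.7 and 61.6 CPM in PARP1 WT and at 69.8 CPM in both PARP2 WT libraries (log2 0.18, SE 0.0367, adjusted p = 0.0373), and Creld2 at 40.3 and 39.1 against 46.3 and 45.8 CPM (log2 0.22, SE 0.0438, adjusted p = 0.0367). Neither call held when only the 4 Cre-free libraries were fitted.

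**Figure D4:**
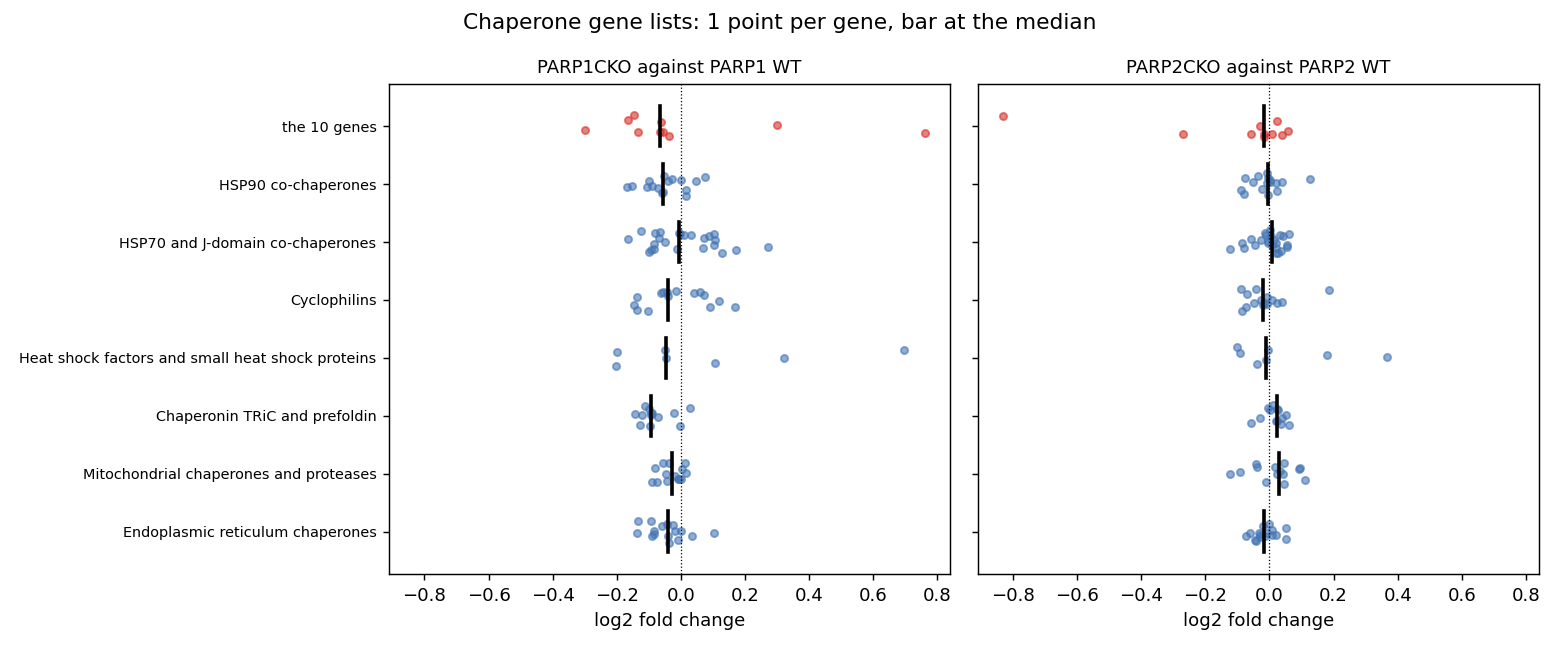
Log2 fold change (x axis) of each gene tested in the 10 genes (red) and the 7 lists (blue), for the PARP1 deletion (left) and the PARP2 deletion (right), with a bar at each median. The median of TRiC and prefoldin lies at −0.0938 on the left and at 0.0241 on the right.

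To show which genes followed the pattern of Ppid, the root mean square difference between the centred log2 CPM of Ppid and of each of the 8672 other genes with a mean of at least 10 CPM was taken over the 8 libraries. The closest were Dtx4 (0.0377), Odc1 (0.0437), Klf6 (0.0479), Bzw2 (0.0492) and Gas5 (0.0493), where the median over all genes was 0.143. Odc1, which encodes the ornithine decarboxylase of polyamine synthesis, was at 135.3 and 144.5 CPM in the PARP1 WT libraries, 118.8 and 112.6 CPM in those of PARP1CKO, 144.4 and 137.4 CPM in the PARP2 WT libraries, and 137.5 and 143.3 CPM in the PARP2CKO libraries. Since these genes were picked for their likeness to Ppid, their low values in PARP1CKO follow from the choice. Of the other 7 abundant genes among the 10, Hspd1 was nearest to Ppid (0.0704, rank 45 of 8672), followed by Hsph1 (0.0748, rank 73). Next came Hspe1 (rank 256), Hspa8 (rank 510), Hsp90ab1 (rank 914), Hsp90aa1 (rank 1550) and Dnajb1 (rank 3663). A gene with no variation between libraries would differ from Ppid by 0.128, the SD of Ppid itself. Hsp90ab1 (0.106) and Hsp90aa1 (0.115) lay near this value, and Dnajb1 (0.137) lay above it. These ranks describe 8 libraries, rest in part on the values used in the choice and were not tested.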

How the data were processed

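Total RNA (4 µg) was sequenced by the authors with the TruSeq Stranded Total RNA kit as single 75-base reads. Per the study's methods and the submitters' processing notes, reads were trimmed, aligned to mm10 with TopHat2 2.0.12, marked for duplicates with Picard 1.127 and counted per gene with featureCounts. The deposited values are unscaled whole-number counts, 1 column per library. Annotation, strand setting and the handling of multiply aligned reads are not given in the sources used here.

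From the counts, edgeR 4.0.16 (R 4.3.3) was used with TMM factors (0.965 to 1.03), filterByExpr, 1 mean per group over all 8 libraries, the quasi-likelihood test and Benjamini-Hochberg adjustment over all 13197 genes tested (threshold 0.05). Fold change intervals used the t quantile of the fit. CPM were counts per 1000000 of the TMM-scaled library size. Median depth was 49646086 counts, and intervals cover these libraries only. An exact permutation test with 2 libraries against 2 cannot go below p = 0.333, so none was made. The scripts were tested on simulated counts. The 10 genes, the 7 gene lists and the marker lists were chosen with earlier results of these data known. Named list genes are those called in either deletion and, per list and comparison, the 2 with the largest difference among genes with a mean of at least 10 CPM. Exon lengths, positions and shared 75-base stretches came from GENCODE M21, and start-site windows from RefSeq. Alternatives were other scalings, DESeq2 1.42.0, a likelihood-ratio test, other filters, the 4 libraries of a comparison alone, a replicate block and leaving out each library.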

Additional observations from a re-analysis of the deposited data

Results flagged for a closer look

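The effect of the PARP2 deletion on Parp2 itself differed from the effect of the PARP1 deletion on Parp2 by −0.82 on the log2 scale (SE 0.0639, adjusted p = 0.00634 by edgeR's quasi-likelihood test of the difference). Parp2 was 0.91 lower in PARP2CKO than in PARP2 WT (log2 −0.91) and had a log2 difference of −0.09 in PARP1CKO against PARP1 WT. It is the targeted gene and serves as the check of the labels.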

How the results depend on the processing

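With 2 libraries a group, the count of genes called depended on the tool more than the values did. For PARP1CKO against PARP1 WT, 14 genes became 86 with DESeq2, 146 with the likelihood-ratio test and 101 without a filter, and for PARP2CKO against PARP2 WT 7 became 27, 39 and 26. Between the Cre-free lines, 417 became 910 with the likelihood-ratio test and 872 without a filter. Leaving out each library gave 1 to 34 genes for PARP1CKO, with 1 and 3 without PARP1 WT replicate 2 and 1, and 34 and 7 without PARP1CKO replicate 1 and 2. It gave 4 to 19 for PARP2CKO, with 19 and 14 without PARP2 WT replicate 1 and 2, 11 without PARP2CKO replicate 2, and 4 without either PARP1 WT library. It gave 85 to 566 between the Cre-free lines, with 85 without PARP1 WT replicate 1 and 167 and 146 without PARP2 WT replicate 1 and 2. Of the 10 genes, 1 (Ppid) was called for PARP1CKO with DESeq2, 1 with the likelihood-ratio test and 1 without a filter, among the 86, 146 and 101 genes above, and none when any library was left out. Nothing is read from this, since Ppid was chosen on that comparison. The 2 listed genes called between the Cre-free lines were 0 with library size alone, 1 with DESeq2, 0 in the fit of the 4 libraries and 0 to 2 when a library was left out, with 0 without any of the PARP1 WT, PARP2 WT or PARP2CKO libraries. The call of Parp1 in PARP1CKO was lost without PARP1 WT replicate 1 or 2 or PARP1CKO replicate 2. It held without any other library (log2 −1.80 to −1.71 over all libraries left out) and in the fit of the 4 libraries. In PARP2CKO against PARP2 WT, the log2 difference of Parp1 was 0.070 to 0.76 over the libraries left out, highest without PARP2 WT replicate 1. The PARP2 WT libraries spread widely for Parp1, at 251 and 155 CPM, beside 263 and 264 CPM in PARP2CKO.

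Scaling by library size alone turned the sign of differences near 0: for PARP2CKO, Hsph1 to −0.0032 and Hspe1 to −0.016, and between the Cre-free lines, Hsp90ab1 to −0.010 and Hsph1 to −0.033. Leaving out each library, the log2 differences in PARP1CKO ranged from −0.32 to −0.28 for Ppid, 0.35 to 1.49 for Hspa1b, −0.18 to −0.15 for Hspd1, −0.21 to −0.093 for Hsp90aa1, −0.25 to −0.057 for Sugt1, −0.28 to −0.0073 for Vbp1, −0.23 to −0.11 for Hspa4l, −0.21 to −0.081 for Ppil4, −0.20 to −0.086 for Cwc27, 0.022 to 0.18 for Hsf1, −0.072 to −0.032 for Hsf2, −0.13 to −0.056 for Hspa9, −0.098 to −0.034 for Hspa8 and −0.10 to −0.029 for Hspe1. In PARP2CKO they ranged from −1.12 to −0.49 for Hspa1a, −0.43 to −0.10 for Hspa1b, 0.078 to 0.17 for Ahsa1, 0.059 to 0.17 for Afg3l2, −0.097 to −0.016 for Ppid, 0.0029 to 0.11 for Dnajb1, −0.062 to −0.00018 for Hsp90aa1, 0.025 to 0.056 for Hspa8, 0.020 to 0.10 for Pfdn2, −0.12 to −0.059 for Nktr, −0.039 to 0.0044 for Hsp90ab1, −0.050 to 0.017 for Hspd1, −0.018 to 0.036 for Hspe1, −0.18 to 0.021 for Dnajb2, −0.33 to 0.12 for Ppwd1, −0.089 to 0.0096 for Hsf1, −0.012 to 0.0033 for Hsf2, −0.20 to 0.068 for Sil1 and −0.13 to 0.014 for Dnajb9. Between the Cre-free lines they ranged from −0.19 to 0.43 for Hspa1a, 0.15 to 1.29 for Hspa1b, −0.17 to −0.058 for Hsp90aa1, −0.077 to −0.034 for Dnajb1, 0.026 to 0.10 for Hspe1, 0.0087 to 0.070 for Hspa8, −0.018 to 0.033 for Ppid, −0.0016 to 0.059 for Hsp90ab1, −0.011 to 0.022 for Hsph1 and −0.051 to 0.0080 for Hspd1. The cause of these moves was not tested. In PARP1CKO, Hsp90ab1 and Dnajb1, whose groups overlap, also crossed 0 (−0.12 to 0.0032 and −0.097 to 0.020), as did Ppid between the Cre-free lines (−0.031 to 0.011 over the other alternatives). At 7 to 43 counts a library, differences in Hspa1a and Hspa1b are limited by depth.

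The replicate numbers are shared between groups without a stated link. Deviations of libraries with the same number correlated at −0.22 between PARP1 WT and PARP1CKO and at 0.22 between PARP2 WT and PARP2CKO. With the replicate number as a block, 14, 6 and 315 genes were called in the comparisons for PARP1CKO, PARP2CKO and the Cre-free lines, 0 of the 10 genes in any, and 0 listed genes between the Cre-free lines.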
